A study of Mus musculus with 8 samples.

Results

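The troponin and tropomyosin genes Tnni1, Tnni2, Tnni3, Tnnt1, Tnnt2, Tnnt3, Tnnc1, Tnnc2, Tpm1 and Tpm2 were examined in the myocardium of male mice that lack NPRA, the cell-surface receptor for atrial and B-type natriuretic peptides (gene Npr1), and of wild-type mice. A probe was assigned to a gene through the RefSeq transcript printed for it on the array, and 16 of the 39429 non-control probes belonged to these 10 genes of the 20659 genes with a named probe. Tpm1 had 5 probes, Tnnt3 and Tpm2 had 2 each, and the other 7 genes had 1 each. NPRA-/- myocardium was measured on 3 one-colour Agilent arrays and NPRA+/+ myocardium on 5, with Cy3-labelled copies of total RNA. The series title calls the deficiency cardiac-specific and the labels name a conditional line with floxed NprA alleles. The sources used here do not give the Cre driver, the age of the mice or whether the wild-type mice carry floxed alleles. No mouse received a treatment. The series text speaks of an m6A array, but the series is typed as expression profiling, and the values are analysed here as transcript levels. The labels call the samples biological repetitions without tying them to animals, so the p-values below measure the spread between these samples.

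Troponin and tropomyosin are the calcium switch of the thin filament. At rest, troponin I holds tropomyosin, through troponin T, over the part of actin that myosin binds; calcium bound to troponin C releases that block and allows contraction. Troponin I and troponin T have cardiac, slow skeletal and fast skeletal isoforms, troponin C has a fast one and one that cardiac and slow muscle share, and the fetal heart uses the slow skeletal troponin I, Tnni1, until the cardiac isoform, Tnni3, replaces it around birth.

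Levels are given as the log2 of the deposited processed signal minus the log2 of the array's 75th percentile, so that 0 is the 75th percentile of that array, negative values lie below it and 1 unit is a doubling. Probes differ in how brightly they bind, so levels of different probes are not set against each other. Genotypes were compared with limma over the 35329 probes well above background on at least 3 of the 8 arrays, with Benjamini-Hochberg adjustment over all of them and a threshold of 0.05. All 16 probes of the 10 genes entered that test; on all 8 arrays, 15 of them stood well above background. The fitted differences of all 35329 probes had a median of 0.21 log2 units toward NPRA-/-, and "relative" differences below have this shift taken off. The shift was not the same for dim and for bright probes, as given below.

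None of the 16 probes passed the threshold in either direction, against 123 of the 35329 probes tested (0.348%), of which 113 were higher (0.32%) and 10 lower (0.0283%) in NPRA-/-. At an unadjusted limma p under 0.05 there were 2 of the 16 probes, 1 higher and 1 lower, where 19.7% of all probes tested reached that level (18.3% higher and 1.36% lower). The genotypes did not overlap for the same number, 1 Tnni1 probe that was lower in all NPRA-/- arrays and 1 Tpm1 probe that was higher, where 15.4% of all probes did not overlap (14.1% higher and 1.29% lower). Thus the counts over the 10 genes were close to those of the array as a whole, and the values of each gene are given next.

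The arrays differed among themselves in ways that touch the brightest of these probes. The signal exceeded by 0.1% of the probes was 263 and 199 times the 75th percentile on replicate 1 of NPRA-/- and of NPRA+/+, and 60.1 to 91.1 times on the other 6 arrays. Replicate 1 of each genotype was also scanned on a day of its own, replicates 4 and 5 of NPRA+/+ on another, and replicates 2 and 3 of both genotypes on the same day, but in a separate scan for each genotype, so that scan and genotype cannot be told apart there. The 75th percentile of signal was 775 to 1253 and no spot was saturated. The Npr1 probe read 0.03 ± 0.40 (SE) log2 units apart between the genotypes (limma adjusted p = 0.978); the sources used here do not say whether it lies in the deleted part of the gene, so it does not check the labels. All 11 ventricular cardiomyocyte markers listed for the tissue check were measured, although 1 of them, Myl7, is the atrial light chain. Their summed signal was 802 to 1924 times the 75th percentile in NPRA-/- and 417 to 1564 times in NPRA+/+.

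**Figure D1:**
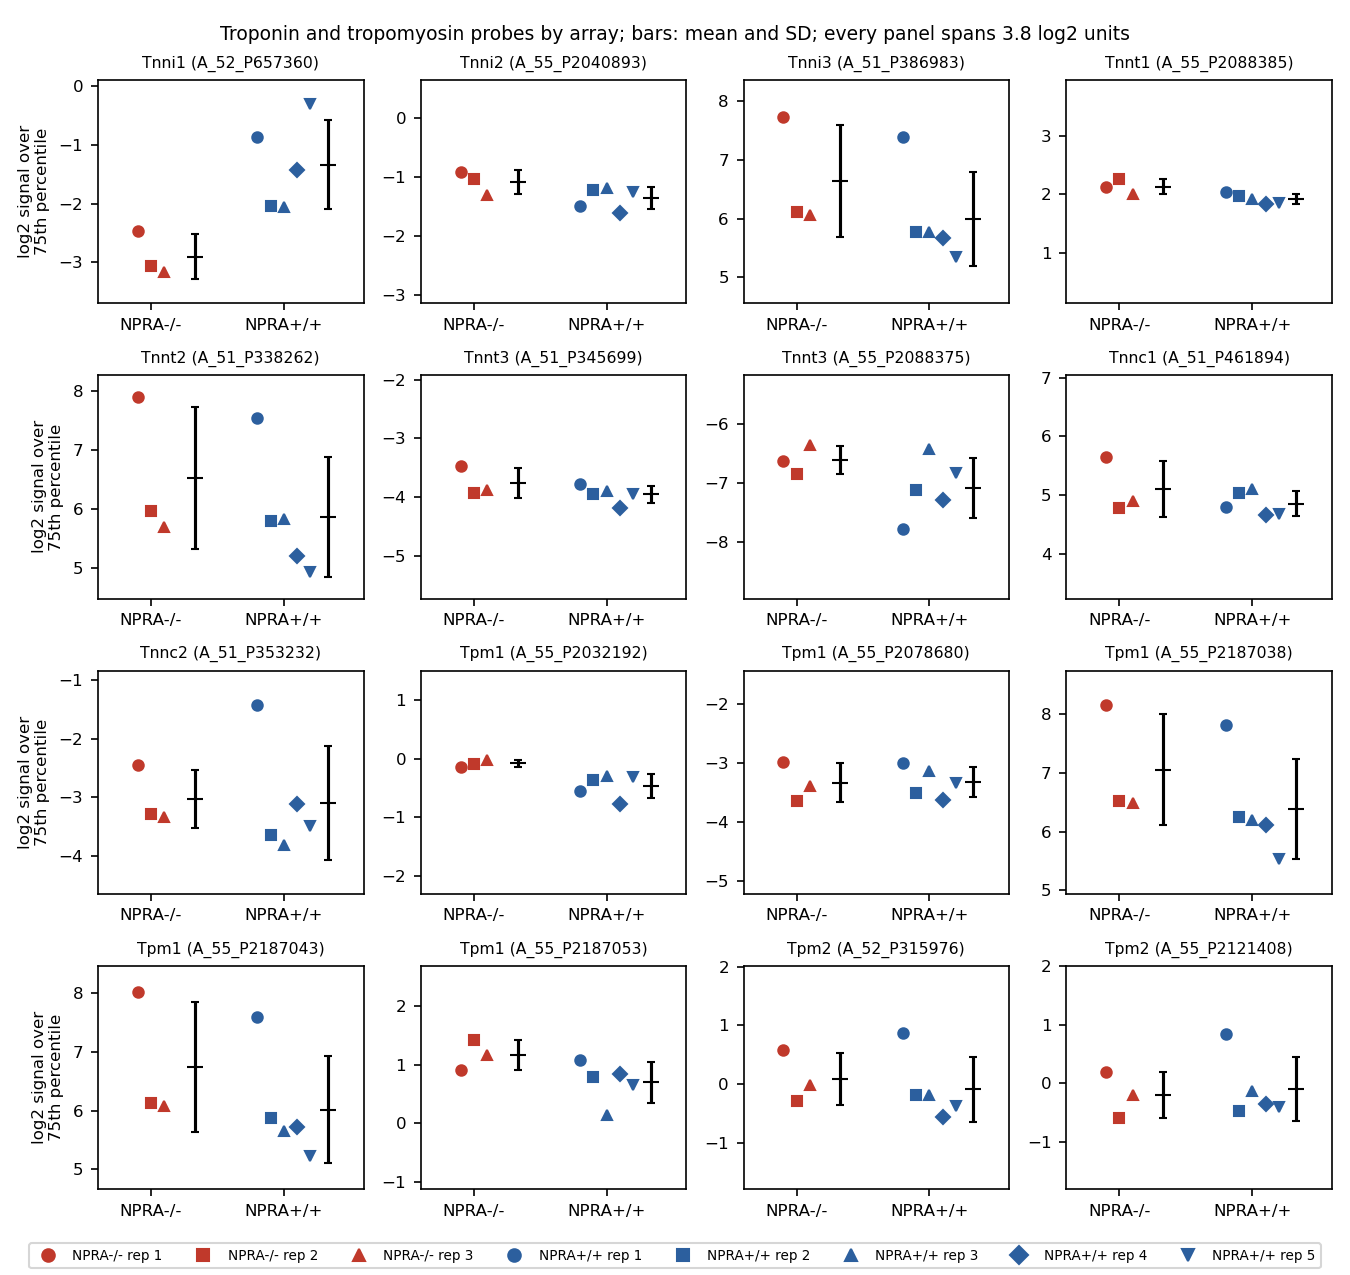
Level of each of the 16 troponin and tropomyosin probes on the 3 NPRA-/- arrays (red) and the 5 NPRA+/+ arrays (blue), in log2 signal over the array's 75th percentile; bars give the mean and SD, and symbols mark the replicate number. Tnni1 lies lower on every NPRA-/- array, whereas Tnni3, Tnnt2 and the 2 bright Tpm1 probes are set apart by replicate 1 (circles) of both genotypes.

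Tnni1, the slow skeletal and fetal inhibitory subunit, was the member that differed most. Its probe A_52_P657360 (NM_021467) read -2.47, -3.06 and -3.17 on the 3 NPRA-/- arrays and -0.87, -2.05, -2.05, -1.42 and -0.31 on the 5 NPRA+/+ arrays. Every NPRA-/- array lay below every NPRA+/+ array, with NPRA-/- replicate 1 the nearest to the wild type. The processed signals behind these levels were 140, 118 and 101 in NPRA-/- and 594, 200, 189, 467 and 883 in NPRA+/+, all well above background. Tnni1 averaged -2.90 ± 0.38 (SD, n = 3) in NPRA-/- and -1.34 ± 0.76 (SD, n = 5) in NPRA+/+. The fitted difference was -1.56 ± 0.42 (SE; 95% interval -2.53 to -0.59), a level 2.95-fold lower in NPRA-/-, and -1.77 relative to the shift of all probes. The unadjusted p was 0.0057, rank 1914 of all probes tested, and the limma adjusted p of 0.106 missed the threshold. As the RNA is from bulk tissue, fewer cells that express a gene and less of its RNA per cell cannot be told apart, here or for any gene below.

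The NPRA+/+ arrays were not alike in Tnni1. Replicates 2 and 3, scanned on the day that also holds NPRA-/- replicates 2 and 3, were the lowest of the wild type at -2.05 each, and replicates 1, 4 and 5, scanned on other days, were higher. Within the shared day the genotypes differed by -1.07, and there the limma adjusted p was 0.0238, where 16.9% of all probes tested passed (1.37% lower in NPRA-/-). With arrays weighted by quality the difference was -1.43 (limma adjusted p = 0.0142), where 27.1% of all probes passed (2.12% lower). Across all 23 alternative settings the difference stayed negative, from -1.85 with scaling to the median to -1.07 with the scan day as a block. The limma adjusted p ran from 0.0142 to 0.451. Many of these settings could not turn the sign. Changes of the filter, another variance prior and averaging the probes of a gene leave the difference at -1.56. Leaving out arrays cannot make it positive, since the genotypes did not overlap. After quantile normalization, which gives all arrays the same distribution, the difference was -1.80 ± 0.39 (SE) with a limma adjusted p of 0.337.

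Tnni3, the cardiac inhibitory subunit of the adult heart, had levels of 7.73, 6.11 and 6.07 on the NPRA-/- arrays and 7.39, 5.77, 5.77, 5.68 and 5.34 on the NPRA+/+ arrays (probe A_51_P386983). The highest array of each genotype was replicate 1, and the genotypes overlapped only through NPRA+/+ replicate 1. Tnni3 averaged 6.64 ± 0.95 (SD, n = 3) in NPRA-/- and 5.99 ± 0.80 (SD, n = 5) in NPRA+/+, with a fitted difference of 0.65 ± 0.54 (SE; limma adjusted p = 0.555) that did not exceed the spread between arrays. It was 0.10 without NPRA-/- replicate 1, 1.00 without NPRA+/+ replicate 1 and 0.45 without both. After quantile normalization the Tnni3 means were 16.17 ± 0.21 (SD, n = 3) and 15.98 ± 0.24 (SD, n = 5) log2 units, so the genotypes lay within about 1 SD of each other on that scale as well.

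Tnni2, the fast skeletal inhibitory subunit, read -0.91, -1.04 and -1.31 in NPRA-/- and -1.48, -1.22, -1.18, -1.61 and -1.26 in NPRA+/+ (probe A_55_P2040893). The lowest NPRA-/- array fell among the wild-type values. The fitted difference was 0.27 ± 0.16 (SE; limma adjusted p = 0.399), and -0.02 where arrays were scaled to their median. It was 0.06 above the shift of all probes and 0.22 above the median of probes of like brightness. Tnni1 therefore had a negative fitted difference while those of the other 2 troponin I genes were positive, with neither of the latter past the threshold.

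The isoform switch of troponin I is usually read from both genes together, and the difference between the log2 values of the Tnni1 and Tnni3 probes of one array is not touched by scaling that multiplies an array by 1 factor, though it is by quantile normalization or background correction. Its absolute value carries the brightness of the 2 probes and has no meaning alone, so only the change between genotypes is read. It was -10.20, -9.18 and -9.24 in NPRA-/- and -8.25, -7.82, -7.82, -7.10 and -5.65 in NPRA+/+, without overlap. NPRA-/- replicate 1 was the lowest of all, as its Tnni3 signal was the highest of the NPRA-/- arrays. The ratio averaged -9.54 ± 0.57 (SD, n = 3) in NPRA-/- and -7.33 ± 1.02 (SD, n = 5) in NPRA+/+. The difference of -2.21 ± 0.66 (SE) log2 units had a two-sided exact permutation p of 0.0357, the smallest that the 56 arrangements of 3 and 5 arrays allow. Any quantity without overlap between the genotypes reaches this p, which is not adjusted. Among single probes, 15.4% of all tested did not overlap (1.29% lower in NPRA-/-).

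The genotypes did not overlap in this ratio on the other scales either. After quantile normalization NPRA-/- read -9.22, -9.38 and -9.50 and NPRA+/+ -7.45, -7.90, -7.94, -7.36 and -6.24, a difference of -1.99 ± 0.41 (SE). With normexp background correction before quantile normalization the difference was -1.39 ± 0.35 (SE), and in the deposited series table it was -1.97 ± 0.40 (SE); the exact permutation p was 0.0357 on each of these 3 scales. Within the scan day that holds both genotypes the difference was also -1.39, from 2 arrays each, where the smallest exact permutation p possible is 0.333. Leaving out 1 array at a time gave -2.44 to -1.79, with the smallest exact permutation p that each reduced design allows, 0.0952 without an NPRA-/- array and 0.0571 without an NPRA+/+ array. Of the log2 difference of -2.21, -1.56 came from the Tnni1 probe and the rest from the higher mean of Tnni3.

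**Figure D2:**
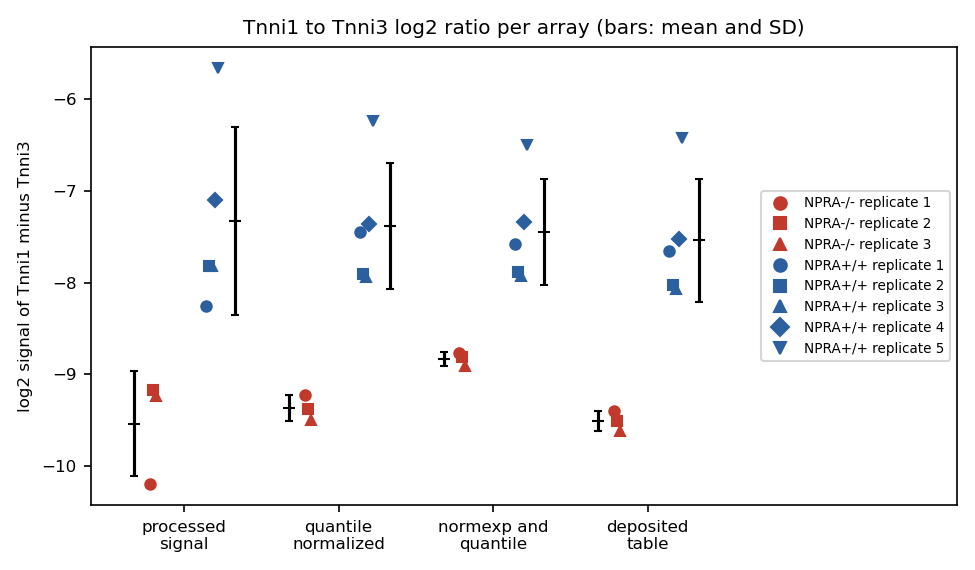
Log2 signal of Tnni1 minus Tnni3 on each array, from the processed signal and from 3 other scales; bars give the mean and SD of the 3 NPRA-/- (red) and 5 NPRA+/+ (blue) arrays. The genotypes do not overlap on any of the 4 scales, and the spread of NPRA-/- shrinks after quantile normalization, which draws in replicate 1.

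The corresponding ratios of the other isoform pairs overlapped between genotypes and were not tested. The difference between genotypes was -0.38 ± 0.63 (SE) log2 units for Tnni2 to Tnni3, -0.46 ± 0.75 for Tnnt1 to Tnnt2, -0.47 ± 0.68 for Tnnt3 to Tnnt2, -0.18 ± 0.64 for Tnnc2 to Tnnc1 and -0.49 ± 0.32 for Tpm2 to Tpm1. After quantile normalization these 5 differences were -0.03, -0.03, -0.43, -0.27 and -0.07. Each was smaller than its counterpart for Tnni1 to Tnni3 on both scales; the difference between the ratios was not tested.

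Fetal and atrial cardiomyocyte genes were read beside Tnni1, since atrial muscle is among the tissues a myocardium sample could hold. Myl7, the atrial regulatory light chain, read 1.31, -3.29 and 1.25 in NPRA-/- and -0.13, -1.51, -4.49, 2.02 and 1.30 in NPRA+/+. Sln, the atrial calcium pump regulator sarcolipin, read 2.94, -3.02 and 2.69 in NPRA-/- and 1.70, 0.41, -3.11, 3.85 and 2.83 in NPRA+/+. Both were lowest on NPRA-/- replicate 2 and NPRA+/+ replicate 3. On that pair of arrays Tnni1 read -3.06 and -2.05, and on the arrays with the highest Sln of each genotype, NPRA-/- replicate 1 and NPRA+/+ replicate 4, it read -2.47 and -1.42. On NPRA-/- replicate 3, where Sln was 2.69, Tnni1 was at its lowest, -3.17. It read -0.87, -2.05 and -0.31 on NPRA+/+ replicates 1, 2 and 5. Within NPRA+/+, replicates 2 and 3 were the lowest arrays for both Sln and Tnni1. The highest NPRA+/+ array was replicate 4 for Sln and replicate 5 for Tnni1. The summed signal of the 12 listed fetal and atrial genes was 65.9 to 125 times the 75th percentile in NPRA-/- and 73.6 to 130 times in NPRA+/+; none of the 12 passed the limma threshold, and their part in the Tnni1 result was not tested. Myh7, the slow and fetal myosin heavy chain, differed by -0.19 ± 0.33 (SE).

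Tnni1 is expressed in slow skeletal muscle as well. The summed signal of the 10 slow skeletal markers was 364 to 892 times the 75th percentile in NPRA-/- and 203 to 745 times in NPRA+/+, and none passed the limma threshold; these genes include Myh7, Myl2 and Myl3, which the ventricle also expresses. The summed signal of the 11 measured conduction system markers was 20.5 to 28.6 times in NPRA-/- and 22.7 to 27.4 times in NPRA+/+, and the defining pacemaker channel gene Hcn4, which is not in that sum, was well above background on 0 arrays. Whether these cells have a part in the Tnni1 values was not tested.

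By correlation over the 8 arrays, among 15526 genes well above background on all of them, the genes most like Tnni1 were Dnajc2 (Pearson r = 0.98), Ylpm1 (0.97), Gpc6 (0.96), Lmntd1 (0.95) and Fancc (0.95). The fiftieth gene in that order still reached 0.85, the arrays share the genotype difference and the scan days, and none of the 5 passed the limma threshold. Ylpm1 had a fitted difference of -2.15 ± 0.45 (SE; limma adjusted p = 0.0749) and Dnajc2 one of -1.42 ± 0.36 (SE; limma adjusted p = 0.0945). On chromosome 1, Tnni1 lies between Phlda3 and Lad1 in RefSeq order, and Lad1 is followed by Tnnt2. Phlda3 differed by 0.02 ± 0.18 (SE) and Lad1 by 0.33 ± 0.15 (SE; limma adjusted p = 0.276), so neither neighbour shared the negative difference of Tnni1.

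Promoter windows of 300 bases, from 250 before to 50 after the start site, are shown for Tnni1, whose level differed most, for Tnni3, its cardiac counterpart, and for Tnnt2 and Tpm1, whose bright probes moved with Tnni3 across arrays. They are RefSeq sequences of GRCm38.p6, at chr1:135799171-135799470 (plus strand), chr7:4522479-4522778 (minus strand), chr1:135836084-135836383 (plus strand) and chr9:67049164-67049463 (minus strand), read 5′ to 3′ on the gene's strand. Capitals mark GATA, the letters read by GATA factors, and CATTCC, the MCAT element read by TEAD factors, each on either strand (TATC and GGAATG on the other).
Tnni1: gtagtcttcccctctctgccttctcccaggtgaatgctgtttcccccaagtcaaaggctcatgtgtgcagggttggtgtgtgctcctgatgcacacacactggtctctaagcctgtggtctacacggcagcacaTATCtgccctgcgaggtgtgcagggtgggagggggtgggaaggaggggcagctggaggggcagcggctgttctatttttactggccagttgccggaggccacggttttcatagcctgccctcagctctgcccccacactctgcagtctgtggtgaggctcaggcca
Tnni3: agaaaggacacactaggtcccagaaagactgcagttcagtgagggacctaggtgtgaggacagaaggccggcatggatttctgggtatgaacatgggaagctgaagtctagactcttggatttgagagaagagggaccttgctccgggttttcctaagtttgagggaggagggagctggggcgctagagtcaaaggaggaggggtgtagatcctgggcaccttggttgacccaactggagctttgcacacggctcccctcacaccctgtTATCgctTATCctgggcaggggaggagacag
Tnnt2: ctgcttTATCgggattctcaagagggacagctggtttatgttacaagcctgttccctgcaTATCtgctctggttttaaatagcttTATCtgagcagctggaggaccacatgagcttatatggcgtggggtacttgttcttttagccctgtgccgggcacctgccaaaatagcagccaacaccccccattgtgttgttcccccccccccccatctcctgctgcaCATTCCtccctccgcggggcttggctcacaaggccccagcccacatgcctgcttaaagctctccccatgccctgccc
Tpm1: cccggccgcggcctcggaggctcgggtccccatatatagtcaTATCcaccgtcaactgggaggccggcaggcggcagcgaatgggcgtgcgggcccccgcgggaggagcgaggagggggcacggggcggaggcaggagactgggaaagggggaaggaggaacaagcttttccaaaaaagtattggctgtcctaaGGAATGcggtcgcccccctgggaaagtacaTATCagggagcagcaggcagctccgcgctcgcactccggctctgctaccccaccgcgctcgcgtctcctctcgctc

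Of the 10 genes, 8 had such a window in RefSeq and 10 windows in all, 2 each for Tnni1 and Tnnt2. The MCAT letters were found in 3 of the 10 windows, at -27 in Tnnt2, -56 in Tpm1 and -58 in Tnnc1, counted from -1 as the last base before the start, and in 14.7% of the 32851 mouse windows of this length. The Tnni1 window shown held 1 GATA match, at -116, and no MCAT match; that of Tnni3 held 2 GATA matches, at 20 and 27, and no MCAT match. GATA matches were found in 57.9% of all windows. A TATA box (TATAAA) was in the Tnnt1 window alone among the 10, at -30, and in 13.6% of all windows. These matches describe the letters only, and the arrays hold no measurement of binding at these sites.

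Troponin T ties the complex to tropomyosin. Tnnt2, the cardiac isoform, read 7.91, 5.97 and 5.69 in NPRA-/- and 7.54, 5.79, 5.83, 5.20 and 4.92 in NPRA+/+ (probe A_51_P338262). Replicate 1 of each genotype stood far above the rest, and NPRA-/- replicate 3 lay below 2 of the NPRA+/+ arrays other than replicate 1. The fitted difference was 0.66 ± 0.68 (SE; limma adjusted p = 0.644). It was -0.03 without NPRA-/- replicate 1, 1.08 without NPRA+/+ replicate 1 and 0.39 without both. For Tnnt2 and Tnni3 alike, the size of the difference depended on which replicate 1 array was kept.

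Tnnt1, the slow skeletal troponin T, varied little, at 2.13, 2.26 and 2.00 in NPRA-/- and 2.05, 1.97, 1.93, 1.84 and 1.85 in NPRA+/+ (probe A_55_P2088385). Its difference of 0.20 ± 0.12 (SE; limma adjusted p = 0.406) was -0.01 relative to the shift of all probes. Relative to the median of probes of like brightness it was 0.15. Although Tnnt1 and Tnni1 are both slow skeletal isoforms, only Tnni1 was free of overlap between the genotypes. Tnnt3, the fast skeletal troponin T, read -3.47, -3.93 and -3.88 in NPRA-/- and -3.78, -3.95, -3.90, -4.18 and -3.95 in NPRA+/+ with probe A_51_P345699. The difference of 0.20 ± 0.16 (SE; limma adjusted p = 0.537) was also -0.01 relative to the shift, but -0.20 relative to probes of like brightness. Its other probe, A_55_P2088375, reached well above background on 2 NPRA-/- arrays and on 1 NPRA+/+ array, and read between -7.78 and -6.36. Tnnt1 lies next to Tnni3 on chromosome 7, and Tnnt3 and Tnni2 lie on that chromosome with only Lsp1 between them in RefSeq order. In each of these pairs both fitted differences were positive, 0.20 and 0.65 for the first and 0.20 and 0.27 for the second. Tnni1 and Tnnt2, with Lad1 between them on chromosome 1, had differences of -1.56 and 0.66. That of Tnnt2 did not exceed its SE of 0.68, and it was -0.03 without NPRA-/- replicate 1.

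Troponin C binds the calcium. Tnnc1, which serves both cardiac and slow skeletal muscle, read 5.65, 4.78 and 4.89 in NPRA-/- and 4.79, 5.04, 5.11, 4.66 and 4.68 in NPRA+/+ (probe A_51_P461894). Only NPRA-/- replicate 1 stood above the wild-type range. The fitted difference was 0.25 ± 0.23 (SE; limma adjusted p = 0.590), and it was -0.24 within the scan day that holds both genotypes, so its sign depended on the arrays used. Tnnc2, the fast skeletal troponin C, read -2.46, -3.28 and -3.33 in NPRA-/- and -1.42, -3.63, -3.80, -3.12 and -3.48 in NPRA+/+ (probe A_51_P353232). Replicate 1 was the highest array in both genotypes, and the fitted difference was 0.07 ± 0.53 (SE; limma adjusted p = 0.962).

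Tropomyosin lies along actin and is the strand that troponin moves. Tpm1, the main tropomyosin of the adult mouse heart, is spliced into many transcripts, and its 5 probes did not behave alike. The 2 brightest, both for NM_001164248, followed Tnni3 and Tnnt2: A_55_P2187038 read 8.15, 6.52 and 6.49 in NPRA-/- and 7.82, 6.25, 6.21, 6.11 and 5.54 in NPRA+/+, highest on replicate 1 of each genotype. Its fitted difference was 0.67 ± 0.56 (SE; limma adjusted p = 0.557), and that of A_55_P2187043 was 0.73 ± 0.62 (SE; limma adjusted p = 0.565). Without NPRA-/- replicate 1 these were 0.12 and 0.09, without NPRA+/+ replicate 1 they were 1.03 and 1.12, and without both they were 0.48 each.

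The Tpm1 probes for other transcripts were dimmer and had a narrower spread. A_55_P2032192 (NM_001164249) read -0.14, -0.08 and -0.03 in NPRA-/- and -0.55, -0.36, -0.30, -0.78 and -0.31 in NPRA+/+, so that every NPRA-/- array was above every NPRA+/+ array. The difference of 0.38 ± 0.15 (SE) was 0.17 relative to the shift of all probes; its unadjusted p was 0.0337 and its limma adjusted p 0.214. A_55_P2187053 (NM_001164255) read 0.91, 1.43 and 1.16 in NPRA-/- and 1.08, 0.80, 0.14, 0.83 and 0.65 in NPRA+/+, overlapping through NPRA+/+ replicate 1, with a difference of 0.47 ± 0.23 (SE; limma adjusted p = 0.299). With arrays weighted by quality both passed, at 0.33 (limma adjusted p = 0.0365) and 0.67 (limma adjusted p = 0.0222), a setting in which 24.9% of all probes tested passed as higher in NPRA-/-. A_55_P2078680 (NM_001164251) differed by only -0.01 ± 0.21 (SE; limma adjusted p = 0.980). Whether the Tpm1 probes differ from each other in their change was not tested.

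Tpm2, the tropomyosin of slow and fast skeletal muscle and of smooth muscle, read 0.58, -0.30 and -0.02 in NPRA-/- and 0.87, -0.19, -0.19, -0.56 and -0.38 in NPRA+/+ with probe A_52_P315976. Its other probe, A_55_P2121408, read 0.20, -0.59 and -0.19 in NPRA-/- and 0.85, -0.47, -0.13, -0.36 and -0.40 in NPRA+/+. On both probes NPRA+/+ replicate 1 was the highest of the 8 arrays. The fitted differences were 0.18 ± 0.34 (SE; limma adjusted p = 0.824) and -0.09 ± 0.33 (SE; limma adjusted p = 0.909). The 2 probes therefore gave differences of opposite sign and of a size within their standard errors.

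**Figure D3:**
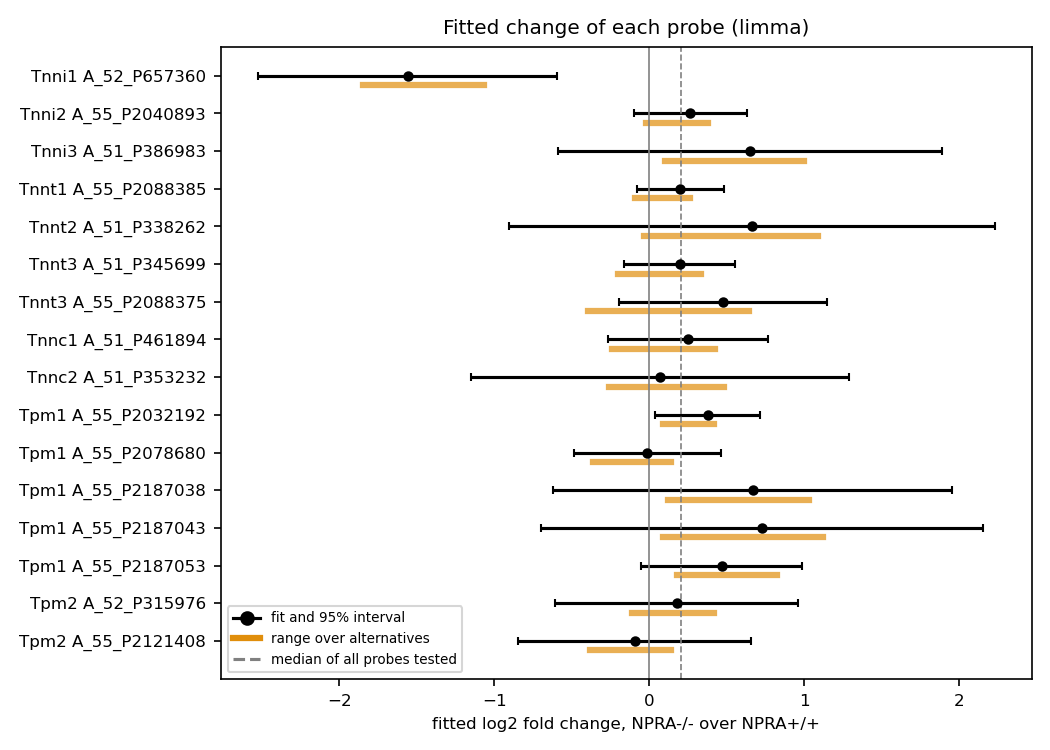
Fitted log2 fold change of NPRA-/- over NPRA+/+ for the 16 probes (points, with the 95% interval) and the range of each over the alternative settings (orange); the dashed line is the median of all 35329 probes tested, 0.21. Tnni1 is the probe farthest from 0, at -1.56, and its range over the alternatives, -1.85 to -1.07, is the one that lies wholly on the negative side.

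Across the 16 probes the fitted difference was positive for 13 and negative for 3, with a median of 0.26 beside 0.21 for all probes tested; relative to that shift 9 were positive and 7 negative. The shift depended on brightness, with a median of 0.63 among the dimmest probes and 0.05 among the brightest when the probes tested were ranked by signal and cut into 5 groups of one size. Tnni1 fell in the middle group, whose median was 0.22, so its difference ran against that of probes of like brightness. With the median of a probe's own group taken off, the difference was 0.15 for Tnnt1 and 0.22 for Tnni2. In the same way it was -0.20 for the Tnnt3 probe A_51_P345699 and 0.33 for the Tpm1 probe A_55_P2032192.

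Tnni3, Tnnt2 and the bright Tpm1 probes moved together from array to array. Over the 6 arrays other than replicate 1 of each genotype, the correlation with Tnni3 was 0.83 for Tnnt2 (Spearman's rho 0.83), 0.98 for A_55_P2187038 of Tpm1 (rho 0.94) and 0.97 for A_55_P2187043 (rho 0.83), and 0.30 for Tnnc1 (rho 0.43). Over the same 6 arrays Tnni1 had a correlation of -0.99 with Tnni3 (rho -0.94), but over all arrays, replicate 1 included, it was -0.14. Leaving out replicate 1 of both genotypes was chosen after seeing the data, and on the 6 arrays left the genotypes did not overlap in either gene. These values are descriptions: the arrays hold both genotypes, and they share scan days and the scaling to the 75th percentile. Replicate 1 of both genotypes broke the relation for Tnni1, since there Tnni3 was high while Tnni1 was at -2.47 and -0.87. The reach of an array's brightest signals, given by the signal that 0.1% of its probes exceed, was largest on the arrays where Tnni3, Tnnt2 and Tpm1 were highest; those bright probes are among the ones that set this value, and its part in their values was not tested.

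**Figure D4:**
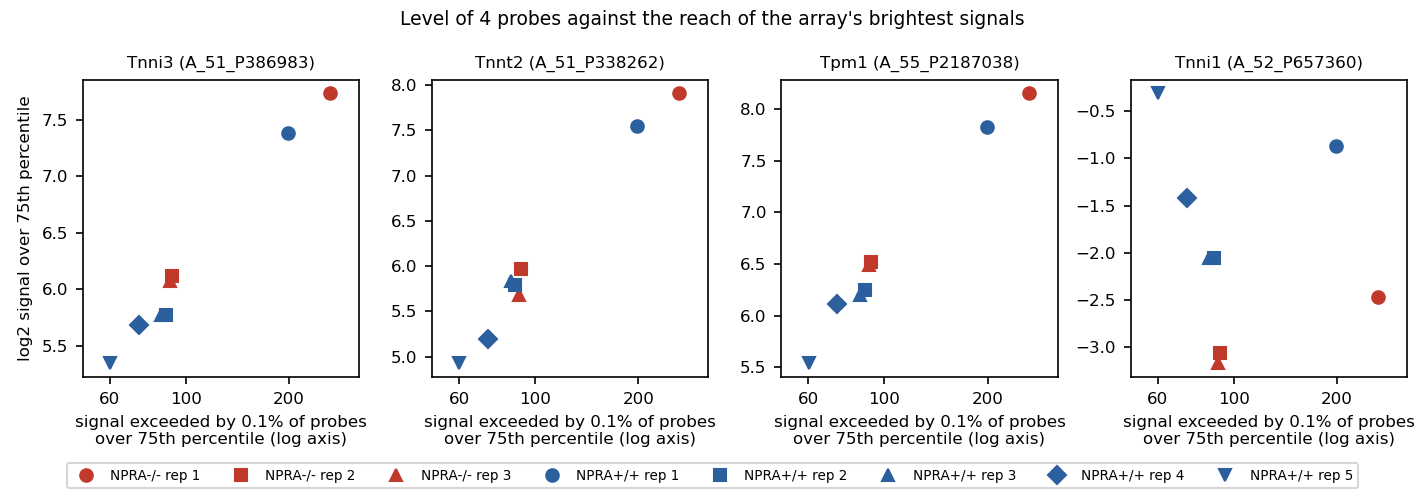
Level of Tnni3, Tnnt2, the Tpm1 probe A_55_P2187038 and Tnni1 (log2 signal over the 75th percentile) against the signal that 0.1% of the same array's probes exceed, over its 75th percentile (log axis), for 3 NPRA-/- (red) and 5 NPRA+/+ (blue) arrays. The first 3 are highest on the replicate 1 arrays, at 263 and 199 on the horizontal axis, whereas Tnni1 on those arrays lies at -2.47 and -0.87.

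Genes that work with the troponins were counted from lists by role, with 1 probe per gene. Of the 91 genes in 6 lists, all tested, none passed the limma threshold in either direction (0.348% of all probes did), and at an unadjusted p under 0.05 there were 3 higher and 2 lower, beside 18.3% and 1.36% of all probes tested. Among 16 other thin filament genes the median difference was 0.09, beside 0.16 for all genes. Lmod1, a leiomodin that nucleates actin filaments mainly in smooth muscle, was at 0.67 ± 0.16 (SE; limma adjusted p = 0.087). Its probe was dim, with signals of 19.6 to 47.3, and dim probes as a whole were shifted toward NPRA-/-. With normexp and quantile normalization the Lmod1 difference was 0.10. Lmod2, the cardiac relative of Lmod1, was at -0.35 ± 0.18 (SE; limma adjusted p = 0.315). Cap2, an actin-binding protein, was at -0.30 ± 0.14 (SE; limma adjusted p = 0.289). Tpm3, the slow muscle and cytoskeletal tropomyosin, differed by 0.08 ± 0.18 (SE) on its brightest probe. Tpm4, the cytoskeletal one, differed by 0.11 ± 0.14 (SE). The other Tpm3 probes had wide errors, at -0.03 ± 0.69 and 0.55 ± 2.13 (SE).

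Among 14 thick filament genes the median was 0.38, with Myl3, the ventricular essential light chain, at 0.77 ± 0.44 (SE), Mybphl, a myosin-binding protein relative, at 0.57 ± 0.30 and Ttn, the titin gene, at 0.38 ± 0.24. Among 13 Z-disc genes the median was 0.26, and Synpo2l, an actin-bundling protein of the Z-disc, had the lowest value, -0.89 ± 0.27 (SE; limma adjusted p = 0.132). Nexn, the Z-disc protein nexilin, was at 0.55 ± 0.27 and Cryab, a small heat shock protein that binds there, at 0.41 ± 0.24. The fitted difference was positive for 11 of the 14 thick filament genes and for 12 of the 13 Z-disc genes, Synpo2l being the exception. It was positive for 11 of the 16 other thin filament genes and for 12 of the 17 troponin I kinases and phosphatases. Among splicing regulators it was positive for 8 of 14, and among transcription regulators for 11 of 17. All probes together were shifted the same way. The share of positive differences over all genes was not counted, so these counts have no baseline and are not read as a result. Relative to that shift the thick filament and Z-disc medians were 0.17 and 0.05.

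Troponin I is regulated by phosphorylation, and 17 kinase and phosphatase genes had a median of 0.04. Prkcd, a protein kinase C, was at 0.48 ± 0.18 (SE; limma adjusted p = 0.188), Pak1, a p21-activated kinase, at 1.11 ± 0.76 and Prkar2a, a regulatory subunit of protein kinase A, at 0.17 ± 0.14. The 14 splicing regulators, which choose the exons of Tnnt2 and Tpm1 among others, had a median of 0.02 and all stayed within a narrow range; Rbm24 was at -0.21 ± 0.17 (SE), Mbnl1 at -0.17 ± 0.13 and Rbpms at -0.30 ± 0.24. The 17 transcription regulators had a median of 0.06, with Mef2a, a MADS-box factor of muscle genes, at -0.86 ± 0.23 (SE; limma adjusted p = 0.105). Tead4, a TEAD factor, was at 0.43 ± 0.17 (SE; limma adjusted p = 0.220) and Nkx2-5, a cardiac homeobox factor, at -0.20 ± 0.11. The Tead4 probe was dim, with signals of 22.6 to 37.5, and its difference was -0.10 after quantile normalization.

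**Figure D5:**
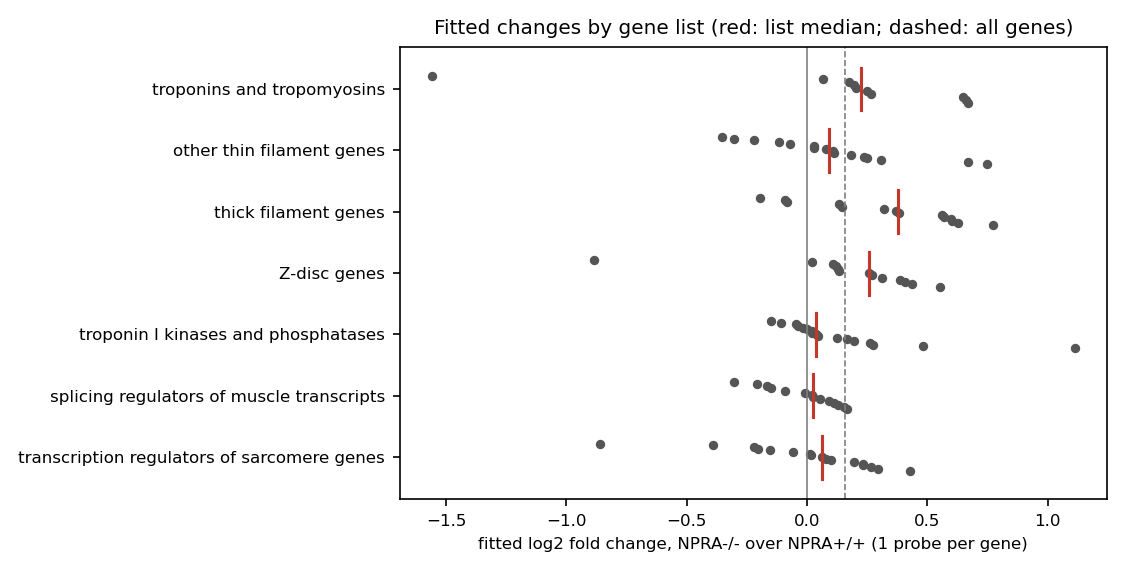
Fitted log2 fold change of NPRA-/- over NPRA+/+ for the troponin and tropomyosin genes and for 6 lists of related genes, 1 point per gene, with the list median in red and the median of all genes, 0.16, dashed. Tnni1 at -1.56 is the lowest point of the 7 rows, followed by Synpo2l at -0.89 and Mef2a at -0.86.

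Markers of other tissues that carry these isoforms were read beside the fast and smooth muscle members. The summed signal of the 14 measured fast skeletal markers was 108 to 188 times the 75th percentile in NPRA-/- and 96.3 to 130 times in NPRA+/+, with 4 of the 14 higher in NPRA-/- at an unadjusted limma p under 0.05 (18.3% of all probes tested) and none past the threshold. Tnni2, Tnnt3 and Tnnc2, which skeletal muscle expresses, overlapped between the genotypes. The smooth muscle sum was 38.6 to 67.0 times in NPRA-/- and 43.1 to 49.7 times in NPRA+/+, beside the overlapping values of Tpm2. The fibroblast sum was 132 to 171 times in NPRA-/- and 115 to 133 times in NPRA+/+, and the endothelial sum was 149 to 204 and 104 to 176 times. The mesothelial sum was low, at 1.24 to 1.81 times in NPRA-/- and 0.69 to 1.02 times in NPRA+/+, without overlap. Of its 7 measured genes 1, Msln, passed as higher in NPRA-/- with a limma adjusted p of 0.0498; it passed in 5 of 22 alternatives, in which that p ran from 0.00238 to 0.452. The part of any of these cells in the troponin and tropomyosin values was not tested.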

How the data were processed

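Total RNA of mouse myocardium was labelled with Cy3 and hybridised to one-colour Agilent arrays, 3 of NPRA-/- and 5 of NPRA+/+, per the labels. The authors extracted the spot intensities with Agilent Feature Extraction 11.0.1.1, per the submitters' processing notes and the file headers; the deposited processed signal is background-corrected intensity and is not normalized between arrays. The deposited series table holds log2 values of the same arrays, each array with a median of 7.045 and in nearly the order of its scanner values; their scaling is not stated, and the table served only as an alternative.

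Control spots and outlier-flagged spots were dropped, the log2 values of a probe's spots were averaged, and each array's 75th percentile was subtracted. The test used limma 3.58.1 (lmFit, eBayes; R 4.3.3), two-sided, over probes well above background on 3 or more arrays, with Benjamini-Hochberg adjustment over all of them. Probes were named by their RefSeq accession without version. The probe with the highest mean stood for a gene in ratios and lists. Genes named beside the 10 members were the 3 smallest unadjusted p-values of each list and the 5 genes closest to Tnni1 by correlation. Tpm3, Tpm4, Myh7, Myl7, Sln, Myh4, Myh1, Mylpf, Msln, Myh7b and neighbouring genes were named after their values were seen. The members and the lists were chosen with earlier results of these data known. The fit was tested on simulated data. Alternatives changed the scaling (quantile, median, series table), the background (normexp with an offset of 50), the filter, the blocks (replicate number, scan day, shared scan time), the array weights, the variance prior and the choice of probe, or dropped an array. Array numbers, 3 and 5, limit the precision.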

Additional observations from a re-analysis of the deposited data

Results flagged for a closer look

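In the NPRA+/+ group, 5 of the 22 sets of array values checked had 1 array far from the nearest other, by Dixon's criterion; chance alone gives such a sample in about 5% of groups, and the probes share their arrays. In each of the 5 it was NPRA+/+ replicate 1, the NPRA+/+ array whose brightest signals reached farthest above its 75th percentile. Tnni3 read 7.39 there, with the nearest array at 5.77. Tnnc2 read -1.42, with the nearest at -3.12. The Tpm1 probe A_55_P2187043 read 7.59, with the nearest at 5.88. The 2 Tpm2 probes read 0.87 and 0.85, with the nearest at -0.19 and -0.13.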

How the results depend on the processing

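The count of probes passing over the whole array moved most: it was 123 as reported, 0 under quantile normalization, median scaling, normexp, the series table, shared scan time as a random block, scan day as a block or the other variance prior, 3 with probes well above background on all 8 arrays, 193 without a filter, 5979 within the shared scan day and 9557 with array weights. Leaving out 1 array gave 0 to 4088, the latter without NPRA+/+ replicate 1, and leaving out replicate 1 of both genotypes, a setting chosen after seeing the data, gave 4134. At an unadjusted limma p under 0.05 there were 6953 probes, and 2848 under quantile normalization. The count of troponin and tropomyosin probes passing was 0 except for 1 within the shared scan day (Tnni1) and 3 with array weights (Tnni1 and 2 Tpm1 probes); leaving out any array kept it at 0, where 0 to 4088 of all probes passed.

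The labels number the arrays in 2 ways: the repetition number, and a number in the source name that 3 NPRA+/+ arrays share. Same-numbered arrays had correlated deviations by repetition number (0.63, 0.28 and 0.36), but so had arrays of unequal number. With a replicate block by repetition number 0 probes passed over the whole array, and with a replicate block by source name number 22. The ratio of Tnni1 to Tnni3 differed by -1.58 and -2.58 under these replicate blocks, by -1.39 with scan day as a block or within the shared day, by -2.44 to -1.79 with 1 array left out and by -2.11 without replicate 1 of both. In these designs the exact permutation p was the smallest possible, 0.25, 0.125, 0.333, 0.0571 to 0.0952 and 0.133, so none could pass 0.05.

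No tested result changed sign past the threshold. Tnni1 was negative in 23 of 23 alternatives, many of which could not turn its sign. All 16 probes were tested, but the second Tnnt3 probe was near background, and 3 NPRA-/- arrays limit every comparison.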

Other observations

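Replicate 1 of each genotype also stood apart in some genes of fast and slow skeletal muscle outside the members. Myh4, the fastest skeletal myosin heavy chain, read -1.50 on NPRA-/- replicate 1 and 0.84 on NPRA+/+ replicate 1, and -8.52 to -3.50 on the other 6 arrays. The Tpm3 probe A_55_P2246235 (NM_022314) likewise read -1.17 and 0.92 on the replicate 1 arrays and -8.38 to -4.88 on the others. Myh4 was well above background on 3 NPRA-/- and 2 NPRA+/+ arrays, and this Tpm3 probe on 2 and 3. The low ends of both ranges are therefore near background. Myh7b, a slow muscle myosin, read 5.57 and 5.93 on the replicate 1 arrays and 2.11 to 2.92 elsewhere. Tnnc2, the fast troponin C, was likewise highest on this pair of arrays, at -2.46 and -1.42, whereas the fast isoforms Tnni2 and Tnnt3 were not set apart from the other arrays to that degree. Not every listed skeletal marker went this way. Myh1, another fast skeletal myosin heavy chain, was lowest on this pair of arrays, at -7.13 and -7.63. It read -6.90 to -5.07 on the other 6, and was well above background on only 2 arrays of each genotype. Mylpf, a fast skeletal light chain, read -3.98 and -4.85 on this pair and -6.53 to -2.60 on the others. Myh7 read 3.16 on NPRA-/- replicate 1 and was lowest of all arrays on NPRA+/+ replicate 1, at 2.57. The markers that went each way were not counted. All genes named here were picked out after their values were seen. Myh4, Myh1 and Mylpf are part of the fast skeletal sum, and Myh7 and Myh7b of the slow skeletal sum and the thick filament median.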
